A study of Drosophila melanogaster with 3 samples.

Results

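First introns of protein-coding genes, away from any promoter, held 2661 of the 9370 peaks in the conservative list (28.4%, 95% Wilson interval 27.5 to 29.3). A peak was counted here if its summit, the position of highest signal, lay more than 500 bp from every annotated transcription start site (TSS), in no exon, and inside the first intron of at least 1 protein-coding transcript. The rule used position alone and no signal value. The 2661 summits fell in 1057 host genes, and 96 of them lay in first introns of 2 genes at the same time. Another transcript of the same or another coding gene placed 1103 of them (41.5%) in a later intron too, so a first intron of 1 transcript is often a later intron of another.

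The peaks come from chromatin immunoprecipitation followed by sequencing (ChIP-seq) of Eagle, the product of eg, in Drosophila melanogaster. There was 1 group with 3 biological replicates: whole prepupae of a transgenic eg-GFP strain, labelled 2 days old, whose Eagle protein carried an enhanced green fluorescent protein (eGFP) tag that the antibody recognised. Sex was not collected, and the labels do not give the promoter of the transgene or the number of animals in a replicate. The labels name a control experiment, which is not analysed here. With a single stage and genotype the design allows no comparison between conditions, so first introns were set against other kinds of sequence within the same replicate.

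Eagle belongs to the knirps family of orphan nuclear receptors, which differ from most nuclear receptors in having no recognisable hormone-binding region, and it is known from the specification of serotonergic neurons in the embryonic nerve cord. First introns of fly genes are often long and are known to hold enhancers, the elements to which transcription factors bind at a distance from the promoter. The prepupal stage follows a pulse of the steroid hormone ecdysone, whose target genes include several with long first introns.

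The sequences below are the summits of 6 of the peaks of highest signal that were overlapped in all 3 replicate lists, each with 50 bp on either side. They are shown so that the base composition and motifs counted further on can be seen in single peaks. Capitals mark matches on either strand to any of 16 short motifs that were searched. All are written 5′ to 3′ on the forward strand of dm6, from the RefSeq copy of release 6, at chr3L:3060754-3060854 (CG32486), chrX:4910329-4910429 (CG32772), chr2L:3302144-3302244 (CG9663), chrX:3742175-3742275 (Tlk), chr2L:7188588-7188688 (CG4496) and chr3L:4228324-4228424 (ImpL2).
CG32486: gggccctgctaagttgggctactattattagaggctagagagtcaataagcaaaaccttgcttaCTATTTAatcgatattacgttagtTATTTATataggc
CG32772: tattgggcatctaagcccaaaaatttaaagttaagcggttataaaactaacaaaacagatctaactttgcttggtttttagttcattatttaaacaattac
CG9663: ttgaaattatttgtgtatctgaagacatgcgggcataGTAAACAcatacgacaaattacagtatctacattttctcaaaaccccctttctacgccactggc
Tlk: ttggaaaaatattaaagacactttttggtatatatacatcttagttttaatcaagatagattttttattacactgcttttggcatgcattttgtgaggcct
CG4496: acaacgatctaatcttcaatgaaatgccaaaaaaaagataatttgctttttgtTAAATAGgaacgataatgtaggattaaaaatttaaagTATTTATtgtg
ImpL2: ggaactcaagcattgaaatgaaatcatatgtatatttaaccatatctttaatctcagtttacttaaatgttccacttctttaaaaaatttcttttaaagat
The GC content of these windows, against a mean of 35.6% over all first-intron summits, was 36.6% at CG32486, 27.7% at CG32772, 38.6% at CG9663, 27.7% at Tlk, 23.8% at CG4496 and 23.8% at ImpL2, so CG32486 and CG9663 lay above that mean. Matches to CTATTTA, part of the site of the muscle factor Mef2, and to TATTTAT stood in the CG32486 and CG4496 windows, and the forkhead motif TGTTTAC stood in reverse orientation in that of CG9663. The windows of CG32772, Tlk and ImpL2 held none of the motifs.

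The peak of highest signal in a first intron lay in CG32486, at position 3060804 of 3L, 9357 bp into an intron of 12037 bp and 5725 bp from the nearest TSS. Its signal, the authors' own measure of peak strength on a scale particular to each list, was 2401.4 in the conservative list, which ranked it 13 of all peaks, and 835.0, 873.9 and 744.1 in the lists of replicates 1, 2 and 3 (817.6 ± 66.6, SD, n = 3). The summit in Tlk, the Tousled-like kinase that acts in chromatin assembly, had 1851.1 in the conservative list and 646.3, 618.6 and 658.1 in the replicates. That in ImpL2, a secreted insulin-binding protein, had 1611.6, with 574.1, 490.2 and 529.5 in the replicates. At these peaks the replicate values differed little, although each is on the scale of its own list and was not rescaled. They differed more at CG13204 (291.2, 553.5 and 780.4) and at speck, the arylalkylamine N-acetyltransferase gene (388.0, 629.9 and 695.0), with the lowest value in replicate 1 each time.

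The 20 first-intron peaks of highest signal had hosts of varied function. They included neur, a ubiquitin ligase of the Notch pathway (signal 1436.9), edl, a modulator of ETS-domain factors (1430.6), and sty, an inhibitor of receptor tyrosine kinase signalling (1382.6). Others were norpA, the phospholipase C of phototransduction (1607.7), the transcription factor gene Adf1 (1565.0) and the HMG-box gene HmgZ (1452.8). CG9663 appears with 2 summits of 1 peak region, 2012.2 and 1668.5, which share the same replicate peaks. The remaining hosts were CG32772, CG12769, CG3726, CG4496, prage, Reph and CG42327.

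Across the 2661 peaks the signal ran from 2.03 to 2401.4, with a median of 139.0 and quartiles of 93.6 and 238.4. The 50 peaks with a signal of 1000 or more were all overlapped in the 3 replicate lists. At the low end, 59 had a signal under 10, and 57 of these had another conservative summit within 500 bp, against 468 of all 2661 (17.6%). When a summit was kept only if no stronger one of its list lay within 500 bp, 2426 of 2661 remained (91.2%), of which 2 had a signal under 10.

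The first question was how far the replicates shared these sites. Of the 2661 peaks, 1195 (44.9%, 95% Wilson interval 43 to 46.8) were overlapped by at least 1 bp in all 3 replicate lists, 508 in 2, 511 in 1 and 447 (16.8%, 15.4 to 18.3) in none. The share in all 3 was 79.8% among peaks at or above the median signal, and 92.8% when the longer, ranked replicate lists were used. Replicates 1, 2 and 3 overlapped 61.1%, 61% and 70% of them (64% ± 5.18, SD, n = 3). In later introns the share in all 3 lists was 42.2%, in intergenic sequence 42.8% and at promoters 44.9%. The share in no list was 19%, 18.3% and 13.5% in the same order. For promoters the 95% Wilson interval of that share, 12.4 to 14.7, lay below that of first introns. The other intervals overlap those of first introns. These intervals cover counting error only, and the differences between classes were not tested. The series list was made from the alignments of the same replicates, so the support of peaks in replicate lists is a description and not independent evidence. The peaks in no replicate list were weaker, with a median signal of 79.1 against 256.3 for those in all 3. Of these 447, 364 overlapped a peak in all 3 longer, ranked lists, but those lists cover 17.7%, 14.2% and 18.9% of the sequence at issue, against 2.04%, 1.99% and 2.55% for the thresholded lists.

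First introns were the densest kind of sequence outside promoters. The replicate lists placed 1808, 1690 and 2088 of their 6215, 6024 and 7476 summits in first introns, which is 29.1%, 28.1% and 27.9% (28.4% ± 0.638, SD, n = 3). Set over the 22.1 Mb of first-intron sequence where such a summit could lie, that is 81.9, 76.6 and 94.6 summits per Mb (84.4 ± 9.26). Later introns, over 29.5 Mb, had 32.6, 29.8 and 36.1 per Mb (32.8 ± 3.16), so the lowest first-intron value lay above the highest later-intron value. Intergenic sequence had 24.5 ± 1.97 per Mb and promoters 143.4 ± 23.6. In the conservative list the values were 120.6 per Mb in first introns, 48.6 in later introns, 36 in intergenic sequence and 197.3 at promoters.

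**Figure D1:**
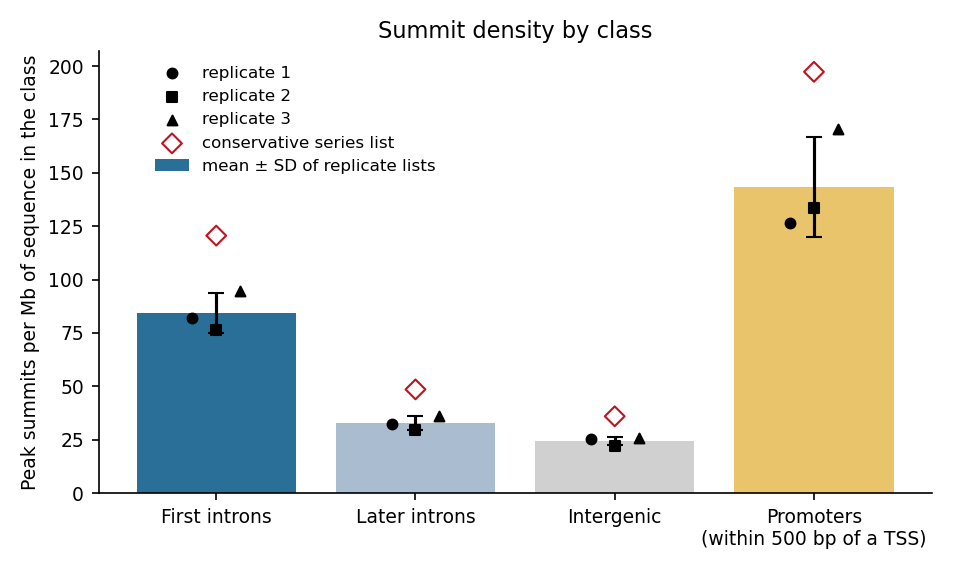
Peak summits per Mb of sequence (vertical axis) in first introns, later introns, intergenic sequence and promoters, with bars for the mean and error bars for the SD of 3 replicate lists, black symbols for each replicate and open diamonds for the conservative list. First introns lie at 76.6 to 94.6 per Mb in the replicates and later introns at 29.8 to 36.1, and promoters are higher than both.

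The log2 ratio of first-intron to later-intron density was 1.33, 1.36 and 1.39 in replicates 1, 2 and 3 (1.36 ± 0.0298, a 2.57-fold difference). Against intergenic sequence it was 1.78 ± 0.0962 (3.44-fold), and against promoters -0.76 ± 0.117 (0.591-fold). Each had an exact two-sided sign-flip permutation p of 0.25 over the 3 replicates, the smallest that 3 replicates allow, so the design cannot reach 0.05 and the statement rests on 3 of 3 replicates having the same direction. The SD covers the 3 replicate lists and not differences between genes.

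The difference was smaller, with the same sign, within the same genes. In the 516 genes that have 5 kb or more of both kinds of sequence, the log2 ratio was 0.87 (10.2 Mb of first introns and 15.5 Mb of later introns, exact p = 0.25), against 1.36 over all genes. Gene by gene, 205 of the 516 were denser in peaks in their first introns, 127 in their later introns, and 184 had none in either. Over introns of 5 kb or more the log2 ratio was 1.15, and over bases not masked as repeats it was 1.31 (exact p = 0.25 for both).

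The density fell with distance from the TSS but stayed above that of later introns in each class of distance. From 0.5 to 1 kb there were 135.0 ± 16.5 first-intron summits per Mb (SD, n = 3 replicates), from 1 to 2 kb 105.8 ± 8.35, from 2 to 5 kb 80 ± 9.77, from 5 to 10 kb 68 ± 8.27, from 10 to 20 kb 54.7 ± 6.79, and beyond 20 kb 36 ± 3.74. The ratio of first-intron to later-intron density was 2.3, 2.23, 1.88, 1.93, 1.59 and 3.41 over the same classes, averaged over replicates on the log scale. First introns had the higher density in 3 of 3 replicates in each class, with an exact sign-flip p of 0.25. Nearness to a TSS moved with the density in both kinds of intron. In the farthest class the 7.19 Mb of later introns held 103 conservative summits and the 1.2 Mb of first introns held 67.

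**Figure D2:**
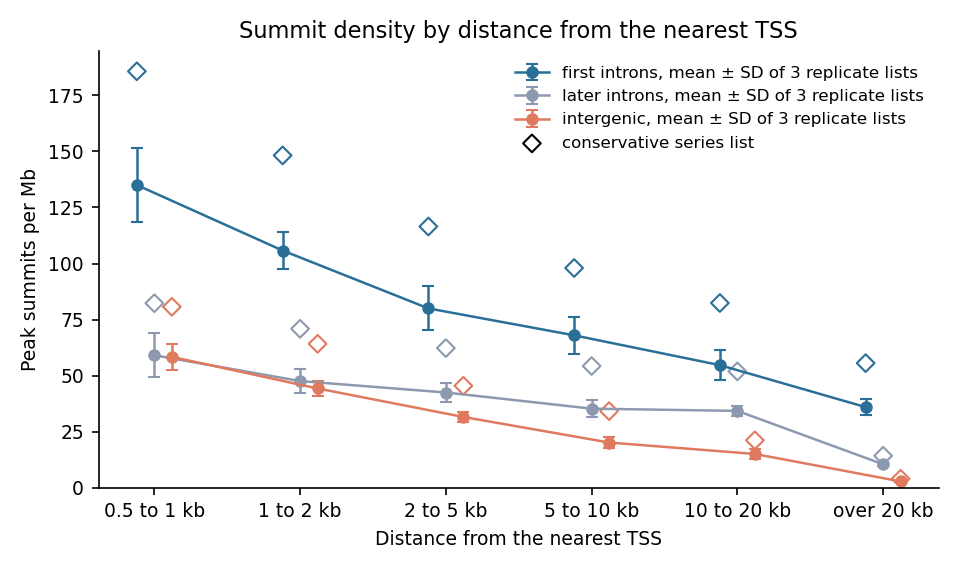
Peak summits per Mb (vertical axis) by distance from the nearest TSS (horizontal axis, 6 classes) in first introns, later introns and intergenic sequence. Filled circles and bars are the mean and SD of 3 replicate lists, and open diamonds are the conservative list; first introns decline from 135.0 per Mb at 0.5 to 1 kb to 36 per Mb beyond 20 kb and lie above both other classes throughout.

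Within the intron, summits were spread widely with a lean towards the start. The median summit lay 3344 bp from the start of the shortest first intron that held it, over all transcripts. The quartiles were 1041 and 8875 bp, and the replicate medians 3169, 3106.5 and 3250.5 bp. The median host intron was 9966 bp long, and 57.2% of summits were nearer to the start of their host intron than to its end (57.9% ± 0.391 in the replicates). No share of sequence nearer to the start is set beside this. Positions were also divided by whether the first introns that cover them, over all transcripts of any coding gene, precede the start codon. Where all of them precede it there were 1387 summits (114.7 per Mb), where all follow it 1036 (123.3 per Mb), and mixed cases 238 (150.6 per Mb). In the replicates these were 81 ± 8.27, 86.9 ± 10.6 and 96.6 ± 10.7 per Mb. The order of the 3 kinds was the same in 3 of 3 replicates and was not tested. At the edge that the rule sets, the nearest summits inside were in CG46339 (501 bp from a TSS, signal 117.6), SREBP (502 bp, 242.3) and ths (502 bp, 173.3), and the nearest outside were in CG32512 (458.9), mats (342.6) and fru (289.5), each at 499 bp. The 129 summits at 500 to 600 bp had a median signal of 138.2 and the 120 first-intron summits at 400 to 500 bp had 147.3.

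The class was found on 5 of the 6 chromosome arms. The X had 131.3 conservative summits per Mb, 3L had 129.3, 2R had 123.4, 3R had 115.5 and 2L had 106.8. In replicates 1, 2 and 3 the X had 93.6, 82.4 and 109.9 per Mb and 2L had 73.4, 69.6 and 84.1. The X was thus higher than 2L in each replicate, a difference that was not tested, although the ranges of these arms over replicates overlap. The small chromosome 4, with 0.14 Mb of such sequence, had none in any list, which allows up to 21.5 per Mb if a count of 3 is taken as the limit.

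Signal was slightly higher in first introns than in other non-promoter sequence. In replicates 1, 2 and 3 the median was 62.2, 67.4 and 64.7 in first introns and 57.4, 63.9 and 62 in later introns, a difference of 4.84, 3.48 and 2.6 (3.64 ± 1.13). Against intergenic peaks it was 2.71 ± 1.03 and against promoter peaks -1.45 ± 1.32. Each exact sign-flip p was 0.25, with the same sign in 3 of 3 replicates. First introns made up a near constant share of the conservative list over its range of signal, from 28.4% of the strongest of 10 classes to 25.9% of the weakest, whereas promoters made up 48.2% of the strongest class and 37.7% of the weakest.

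Of 5889 protein-coding genes with any first-intron sequence that could hold such a summit, 1057 (17.9%) had at least 1. Of the 1137 with 5 kb or more of it, 619 (54.4%) did. In the replicate lists the shares were 14.9% ± 0.875 and 46.7% ± 1.58 (SD, n = 3), and 682 genes had a first-intron peak in every list. The share followed length closely: 1.32% of genes with up to 0.5 kb, 15.4% with 0.5 to 2 kb, 29% with 2 to 5 kb, 48.2% with 5 to 10 kb, 52.9% with 10 to 20 kb and 67.9% with over 20 kb. The number of summits per Mb did not follow it in this way, with 96.5, 171.6, 131.4, 146.0, 117.4 and 96.5 in the same order. Host genes more often had a promoter peak as well: within these length classes 48.6% to 72.1% of hosts did, and 18.2% to 33.8% of the other genes. These are counts over genes, with no test.

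Peaks were unevenly shared between hosts. A single first-intron peak was found in 499 genes, 2 to 4 in 413, 5 to 9 in 120 and 10 or more in 25, and those 25 genes held 336 of the peaks (12.6%). Neighbouring summits of a host lay 1746.5 bp apart at the median, and 541 of 1604 neighbouring pairs (33.7%) lay within 1000 bp.

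The gene with the most first-intron peaks was sbb, which encodes the co-repressor Scribbler (also called Brakeless), with 32 in 54.8 kb, and 23, 21 and 22 in the lists of replicates 1, 2 and 3. Its strongest summit, 52575 bp into an intron of 65649 bp and 1053 bp from another TSS, had a signal of 1020.3 and replicate signals of 340.3, 308.5 and 349.5. The next, 22009 bp from any TSS, had 806.1, with 328.9, 258.4 and 179.6. Of the 32, 17 were in all 3 replicate lists, and 25 had no stronger summit within 500 bp.

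Snoo, a Ski and Sno family protein of Dpp and activin signalling, had 22 first-intron peaks in the conservative list and 18, 16 and 22 in the replicates. Tlk had 21, with 14, 13 and 19. The zinc finger factor shn, which acts downstream of Dpp, had 18, with 9, 11 and 12, and the junction scaffold pyd had 16, with 9, 8 and 13. Among the 4 genes with 14 each, tou encodes a subunit of chromatin remodelling complexes, Svil an actin-binding protein and RapGAP1 a regulator of small GTPases, and CG43658 is the fourth. The genes with 12 were the forkhead factor CHES-1-like (11, 14 and 13 in the replicates), simj, a subunit of a chromatin deacetylase complex (6, 9 and 9), and Tet, an enzyme that oxidises methylated bases (9, 7 and 10). For its length CHES-1-like (818.4 per Mb) was densest of the 12 and CG43658 (205.9 per Mb) least dense, against 117.0 per Mb over all genes. Counting only summits with no stronger one within 500 bp, these 12 genes had 11 to 25.

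**Figure D3:**
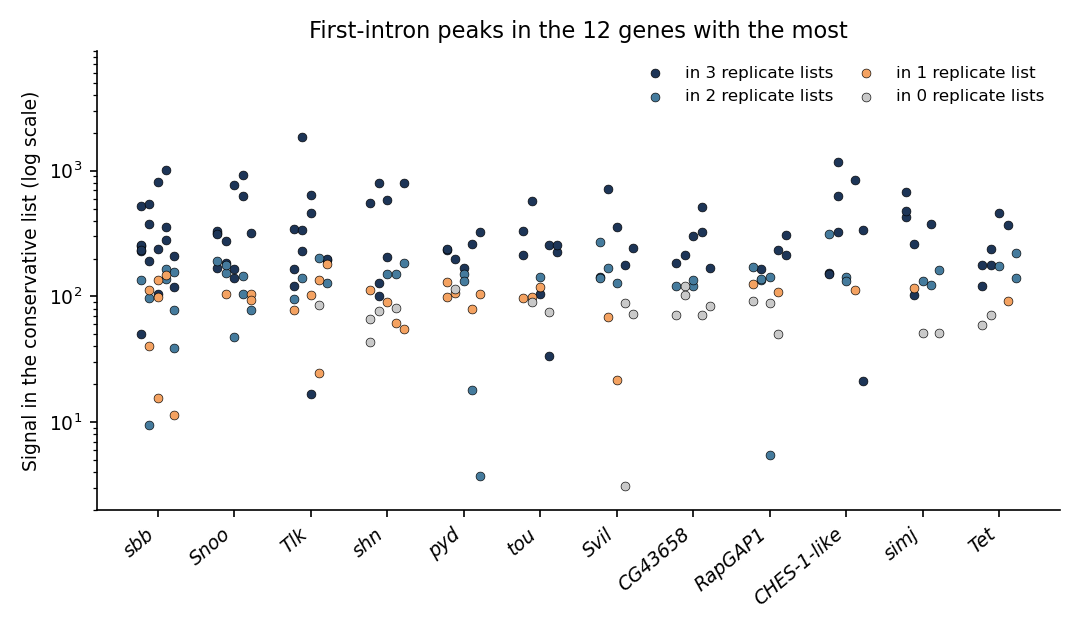
Signal of each first-intron peak in the conservative list (vertical axis, log scale) for the 12 genes with the most such peaks, coloured by the number of replicate lists that overlap it. Peaks in all 3 lists reach 1851.1 in Tlk, 1163.7 in CHES-1-like and 1020.3 in sbb, and peaks in no list lie mostly near or under 100.

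Among genes with at least 5 kb of sequence, the densest was Diap1, the inhibitor of apoptosis, with 8 summits in 5.52 kb and 7, 5 and 6 in the replicates. Its strongest had a signal of 640.9, and 89.3, 193.4 and 224.1 in the replicates, lowest in replicate 1. The co-repressor gene CtBP had 6 in 5.17 kb but 2 in each replicate list, and 3 of the 6 were in no replicate list. The kinase gene mnb had 6 (3, 3 and 4 in the replicates) and Mnt, a repressor that pairs with Max, had 11 (6, 9 and 10). At the other extreme, 88 of 274 genes with over 20 kb had no first-intron peak in the conservative list, and 83 of these had none in any replicate list. Among them were Myo81F (266.8 kb), bru1 (87.8 kb), AstA-R1 (70.2 kb), the Hox gene Ubx (63.2 kb), the adhesion receptor Ten-m (59.8 kb) and the potassium channel Sh (54 kb). Of those named, Ten-m and Sh had a promoter peak. How well reads can be placed in these introns was not assessed.

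The gene of the tagged factor and its relatives had no first-intron peak, although eg and kni had a promoter peak. At eg, 4.61 kb of first-intron sequence held no summit of this class in any list, and at knrl 2.28 kb held none. Of all genes with 2 to 5 kb of it only 29% had one, so these absences are common at such lengths. The first intron of kni, of 0.734 kb, has no sequence that qualifies.

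Ecdysone response regulators and nuclear receptors had larger shares of genes with a first-intron peak than all genes. Some genes stand in several of the lists used here, such as Hr4 and Eip75B in both of these, so the lists are not separate results. Of 17 regulators with any such sequence 13 had one (76.5%, 95% Wilson interval 52.7 to 90.4), and all 12 with 5 kb or more did, against 17.9% and 54.4% of all genes. In the replicates the share was 68.6% ± 8.99. These genes have long first introns, with a median of 13.3 kb against 0.588 kb over all genes, and among genes with 5 kb or more the medians were still 21.3 and 11.1 kb, so neither share is matched for length. Per Mb the regulators had 130.0 ± 27.3 summits in the replicates, against 81.9 ± 8.99 over all genes (SD, n = 3). Nuclear receptors had 9 of 16 (56.2%, 33.2 to 76.9), but 37.5%, 43.8% and 50% in replicates 1, 2 and 3, and 9 of 9 with 5 kb or more, whose median length was 20 kb. They had 110.5 ± 21.5 summits per Mb in the replicates. Hr39 (0.05 kb) and Hr51 (1.75 kb) had none, nor had E23 (0.124 kb) and Eip93F (2.77 kb) among the regulators.

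Hr4, a prepupal nuclear receptor, had 3 first-intron peaks with signals of 1118.2, 1031.2 and 666.2, all in 3 of 3 replicates. The strongest had 390.2, 313.4 and 430.6 in the replicates. Eip75B, an early ecdysone-inducible receptor, had 11 (6, 5 and 8 in the replicates), led by a summit with 884.3 that lay 9359 bp from any TSS (330.1, 244.3 and 304.8). The early-late receptor gene Hr3 had 9 (7, 6 and 7), the strongest with 683.9. The receptor coactivator tai had 5 (3, 3 and 3), the strongest with 724.2 and replicate values of 149.8, 239.7 and 372.6. Eip74EF, an ETS-domain early gene, had 9 in the conservative list but 3, 8 and 10 in the replicates. Replicate 1 held fewer of its peaks than the other 2, and 3 of the 9 were in all 3 lists.

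Signalling lists had shares above those of all genes, 17.9% with any such sequence and 54.4% with 5 kb or more. Their genes with 5 kb or more were longer in this sequence than the 11.1 kb median of all such genes, at 14.7 kb for Notch and EGF receptor signalling, 23.5 kb for Wnt, Hedgehog and Dpp signalling and 13.3 kb for kinases and GTPase regulators, so these shares are not matched for length. Notch and EGF receptor signalling had 14 of 21 genes with a first-intron peak (66.7%), and 9 of 10 with 5 kb or more. Beyond neur and sty it was led by Egfr, the receptor itself, with 7 peaks and a highest signal of 915.2. Wnt, Hedgehog and Dpp signalling had 15 of 27 (55.6%) and 13 of 14 with 5 kb or more, led by dpp (1042.3), the ligand, shn (802.0) and dally, a proteoglycan that shapes ligand gradients (508.7). The 8 peaks in dally were fewer in the replicates, at 1, 2 and 4. Kinases and small GTPase regulators had 18 of 33 (54.5%), with 276.3 per Mb, led by Tlk, the cGMP-dependent kinase gene for (1085.4) and Btk (532.1), while CASK had none in 17.4 kb. Insulin and growth genes had 6 of 13, led by ImpL2, foxo (717.1) and sima (573.0). Cbl (0.543 kb) and H (0.072 kb), Apc (2.42 kb) and Axn (3.49 kb), and Ilp8 (0.672 kb) and Lnk (0.589 kb) had none. At such lengths most genes had none, with a peak in 1.32% at up to 0.5 kb, 15.4% at 0.5 to 2 kb and 29% at 2 to 5 kb.

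Zinc finger factors of the BTB and C2H2 kinds had 16 of 32 (50%), led by sbb, shn and br (434.2), and chromatin regulators 8 of 22 (36.4%), led by trx (842.9), tna (787.3) and Tet (461.8). RNA-binding proteins had 13 of 26 (50%), led by mub (1255.2), brat (992.4) and shep (880.9), although their 93.6 summits per Mb were below the 117.0 of all genes. Basic helix-loop-helix factors had 7 of 20, with tai, Mnt and emc highest, and clock genes 5 of 10, with vri, sgg and Pdp1 highest. With 5 kb or more the shares were 70.6%, 85.7%, 62.5%, 71.4% and 80% in the order named, against 54.4% of all genes. Median lengths of these longer genes were 22.7, 11.7, 22.9, 12.6 and 18.1 kb, against 11.1 kb, so the shares are not matched for length. Zinc finger, chromatin, helix-loop-helix and clock lists had 195.1, 340.1, 216.4 and 208.8 summits per Mb. Homeodomain factors had 7 of 36 (19.4%, near the 17.9% of all genes) and 7 of 16 with 5 kb or more, with 53.8 per Mb (37 ± 5.83 in the replicates, against 81.9 ± 8.99 over all genes). Their highest signals were at hth (277.6), ct (231.1) and inv (193.4).

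Genes of adhesion, guidance, ion channels and transmitter receptors had few first-intron peaks for the length of their introns. Cell adhesion and guidance genes had a peak in 14 of 48 (29.2%), but in 12 of 31 with 5 kb or more (38.7%, against 54.4% of all such genes), with 29.8 ± 8.96 summits per Mb in the replicates against 81.9 ± 8.99 over all genes. The highest were Ptp10D (772.5), Fas3 (638.9, with 10 peaks) and hbs (285.3), and CadN (12.2 kb) and Con (25.4 kb) had none. Ion channels and transmitter receptors had 3 of 34 (8.82%, 95% Wilson interval 3.05 to 23) and 1 of 16 with 5 kb or more (6.25%). The 3 were KCNQ (920.8), mAChR-A (283.5) and Nmdar1 (201.2), and the serotonin receptor genes 5-HT1A (22.2 kb) and 5-HT1B (1.79 kb) had none. Their density in the replicates was 16.9 ± 4.57 per Mb. Both lists were below the mean density over all genes. This was not tested, and the SDs cover the replicate lists and not differences between genes.

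Genes listed for serotonin and the NB7-3 lineage, the neurons in which eg is known to act, had a peak in 3 of 14 (21.4%, 7.57 to 47.6), near the 17.9% of all genes, with 11.9% ± 4.12 in the replicates and 3 of 4 with 5 kb or more. These were nkd, with 6 peaks and a highest signal of 310.6, ttk (126.4) and zfh1 (101.2, in no replicate list). Ddc (1.03 kb) and Kr (0.25 kb) had none. Marker lists of tissues in the whole animal gave neuron 2 of 11 (Rbp9 and elav), glia 4 of 9 (loco, Gs2 and Gli highest), muscle 5 of 17 (mys, Mef2 and Zasp52 highest), fat body 5 of 6 (Lsd-2, bmm and Lpin highest), trachea 3 of 7 (bnl, tyn and pio) and haemocyte 3 of 8 (Pvr, ush and srp). The median lengths of such sequence in these lists were 3.22, 1.33, 1.55, 4.5, 2.73 and 4.06 kb in this order, against 0.588 kb over all genes. Per Mb they had 34.3, 177.4, 146.3, 341.3, 106.1 and 142.5 summits, against 117.0. These lists are small, their intervals are wide and their shares are not matched for length. In chromatin from whole animals a site bound in few cells and a site bound weakly in many cannot be told apart. Cytoplasmic ribosomal protein genes (0 of 10) and proteasome genes (0 of 8) had none, but the sequence in which a peak could count was 0.00189 and 0.000892 Mb. Cuticle genes of the Cpr family had 3 of 19, at Cpr62Ba, Cpr97Ea and Cpr73D.

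**Figure D4:**
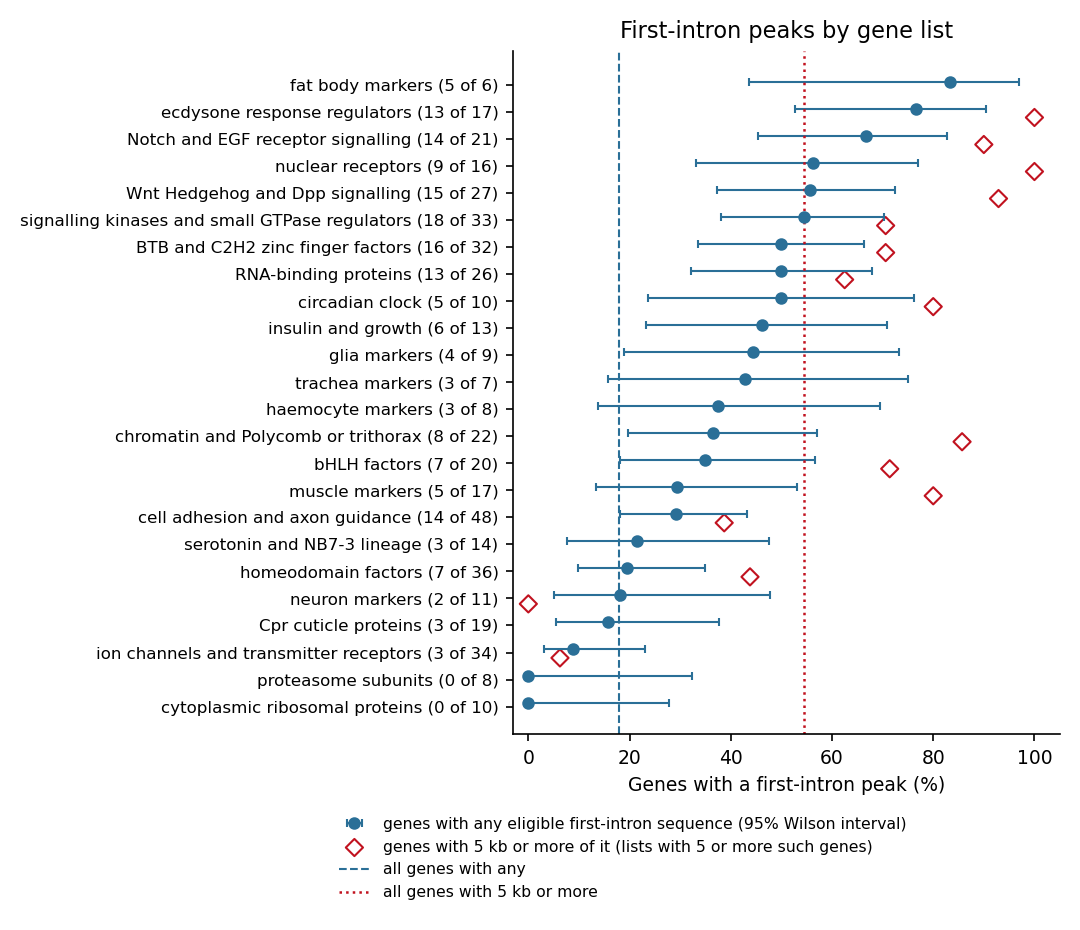
Share of genes with a first-intron peak (horizontal axis, %) for 24 gene lists, with filled circles and 95% Wilson intervals for genes with any eligible sequence, open diamonds for genes with 5 kb or more of it, and dashed and dotted lines for all genes (17.9% and 54.4%). Regulators of the ecdysone response lie at 76.5% and ion channels and transmitter receptors at 8.82%.

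Other loci with long first introns varied. The growth regulator heca had 10 (8, 8 and 9 in the replicates), the strongest with 990.9 and 269.0, 332.3 and 371.3 in the replicates. The BTB zinc finger gene mamo had 8 (5, 4 and 6), Syp 6 (6, 5 and 6), Imp 2 in every list and the adhesion gene kirre 1 in 27.9 kb. At Glut4EF there were 8 in the conservative list but 4, 0 and 2 in the replicates. None of those 8 was in all 3 replicate lists, and the highest had a signal of 144.3.

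Summits were rich in A and T. The mean GC content of conservative summits, with 50 bp on either side, was 35.6%, against 43% in windows of the same size 300 bp away on both sides and 40% in windows tiled over all first-intron sequence that could hold a summit. In replicates 1, 2 and 3 it was 32.6%, 33.5% and 35.5% at summits and 44.1%, 43.5% and 42.8% in the flanks, a difference of -9.59 ± 2.18 percentage points (exact sign-flip p = 0.25, lower in 3 of 3 replicates). Summits were thus below, and flanks above, the average of first-intron sequence. The difference was -10.7 ± 1.74 in later introns, -11.2 ± 1.9 in intergenic sequence and -5.4 ± 3.63 at promoters. First introns differed from promoters by -4.19 ± 1.51 points and from later introns by 1.07 ± 0.449 (exact p = 0.25 each, same sign in 3 of 3).

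**Figure D5:**
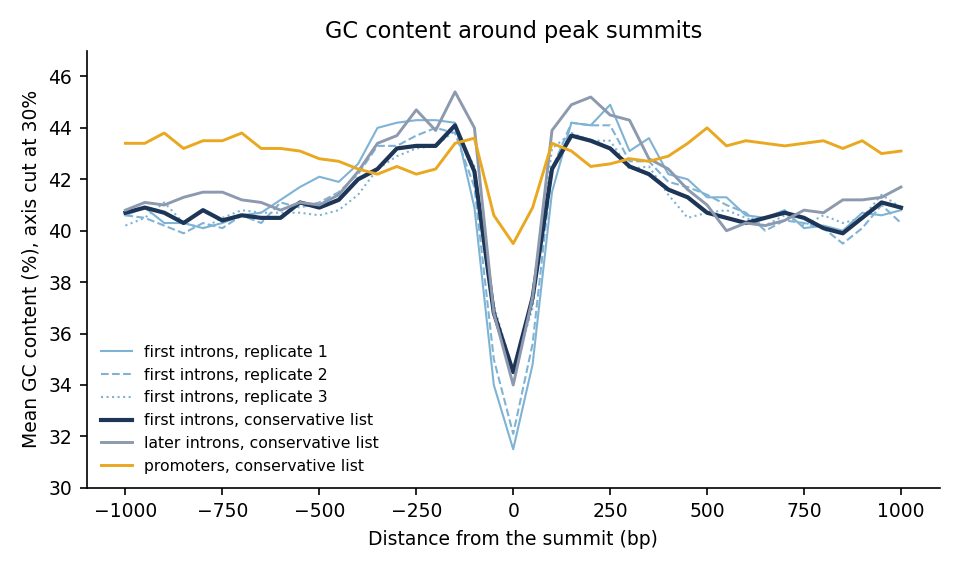
Mean GC content in 25 bp (vertical axis, cut at 30%) by distance from the summit (horizontal axis, bp) for first introns in the conservative list and in each replicate, and for later introns and promoters in the conservative list. At first-intron summits it was 34.5% in the conservative list, with shoulders of 44.1% at 150 bp before and 43.7% at 150 bp after, and about 40% to 41% at 1000 bp.

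The dip went with signal. When the conservative peaks were divided into 4 classes of 665 or 666 by signal, summit GC was 31% in the strongest, then 33.1%, 36.3% and 42.1% in the weakest, while the flanks were at 44.2%, 43.5%, 43% and 41.1%. In the conservative list the weakest class therefore had no dip. In replicates 1, 2 and 3 the strongest class had 30.9%, 30.8% and 32% at the summit and the weakest 35.2%, 37.7% and 40.9%. The flanks of that weakest class were at 43.6%, 42.8% and 41.5%, so a dip remained in each replicate list, smallest in replicate 3. The strongest class was also lower than the weakest in later introns (30.9% and 42.8%), intergenic sequence (31.2% and 41%) and promoters (32% and 46.4%). The part of base composition in the signal was not tested.

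Of the 2661 summit windows, 1771 (66.6%) held none of the 16 motifs on either strand, against 69.2% of flank windows and 69.5% of tiled windows. In replicates 1, 2 and 3 the share with none was 65.3%, 65.6% and 66% at summits and 70.1%, 68.6% and 69.3% in the flanks. TATTTAT was in 9.85% of them (95% Wilson interval 8.77 to 11), against 6.71% of flank windows and 7.75% of tiled windows. In the replicates it was in 12.2%, 11.1% and 9.82% of summit windows and 5.84%, 6.18% and 6.49% of flank windows (4.85 ± 1.5 percentage points higher). The homeodomain core TAATTA (7.44% against 5.99%), CTATTTA (2.93% against 1.94%) and the GATA motif AGATAAG (1.69% against 1.03%) were also more frequent at summits than in flanks in 3 of 3 replicates. In tiled first-intron windows they stood at 7.94%, 2.24% and 1.36%, so TAATTA at conservative summits was no more frequent than in first introns at large. At the summits of replicates 1, 2 and 3 TAATTA stood at 10.8%, 9.53% and 7.81%, above the tiled share in replicates 1 and 2 only. All of these motifs consist mostly of A and T, but the part of base composition in their differences was not tested. The GC dip was -11.5 points in replicate 1 and -7.23 in replicate 3. Between these replicates the difference from flanks fell for TATTTAT (6.33 to 3.33 points), TAATTA (5.92 to 1.41) and CTATTTA (2.32 to 1.65). For AGATAAG it did not fall (0.41 to 0.53). Against windows 1000 bp away the difference of AGATAAG was 0.06 points with no common direction in the replicates (exact sign-flip p = 1.0), against 0.45 points for those 300 bp away. TATTTAT and CTATTTA overlap in 6 letters and are not separate results.

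In the conservative list the motifs tied to the protein family were no more frequent than in the flanks beyond counting error. In the replicates the differences depended on the windows used. TAGAGCA, the half-site of knirps-family receptors, was in 23 windows (0.864%, 0.577 to 1.29), against 0.733% of flank windows and 0.839% of tiled windows. It was higher in 3 of 3 replicates by 0.20 ± 0.144 points (exact sign-flip p = 0.25), and by 0.04 points with no common direction against windows 1000 bp away (p = 1.0). With windows of 100 bp on either side TAGAGCA was higher by 0.43 points, in 3 of 3 replicates (exact sign-flip p = 0.25). The nuclear receptor half-site AGGTCA was in 2.25% against 1.95% of flank windows and 2.51% of tiled ones, and in the replicates it differed by 0.28, 0.03 and -0.10 points. Against windows 1000 bp away AGGTCA was higher by 0.26 points, in 3 of 3 replicates (exact sign-flip p = 0.25). With 100 bp on either side its mean difference was -0.14 points. Its extended form CAAGGTCA, which contains it, was in 5 windows.

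CACACACA (2.89% against 4.53%), the E-box CAGCTG (3.57% against 4.27%) and the AP-1 motif TGAGTCA (0.902% against 1.63%) were less frequent at summits than in flanks, and so in 3 of 3 replicates. Tiled windows held them at 2.83%, 3.79% and 1.07%, nearer to summits than to flanks in the conservative list. For CAGCTG the tiled share was nearer to the flanks in replicate 1 (2.77% at summits, 4.45% in flanks) and replicate 2 (2.72% and 4.62%). The same held for TGAGTCA in replicate 1 (0.553% and 1.41%). GAGAGAG, the site of GAGA factor, was in 3.34% of conservative summit windows against 2.86% of flank windows and 1.46% of tiled ones, but lower at summits than in flanks in each replicate (-1.11 ± 0.921). In the strongest of the 4 signal classes it was in 0.752% of summit windows against 3.31% of flank windows, and in the next to weakest in 5.41% against 1.88%. Promoter-type motifs were rare: TATCGATA was in 0.188% and GGTCACAC in 0.113%, against 1.34% and 1.09% at promoter summits. The 16 motifs gave 6 that were higher and 7 that were lower at summits in 3 of 3 replicates, each of these with an exact sign-flip p of 0.25. Adjusted over the 16 motifs no p can fall below 0.25.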

How the data were processed

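The data were peak lists from anti-GFP ChIP-seq in 3 biological replicates of 1 group, with the spread over replicates given as an SD. The labels give sonication for shearing and dm6 as the assembly of the deposited lists. For each replicate the authors deposited a ranked list and a shorter list thresholded on the irreproducible discovery rate (IDR), a measure of how well peak ranks agree, and for the series lists of both kinds, 1 of which they call conservative. The signal of each peak is the authors' own deposited value, on a scale particular to its list. The column that gives the summit's position within its peak is of another unit, a deposited distance in bp. The sources used here name no aligner or peak caller. The files hold no read counts, so depth is unknown, and intervals cover counting error only. In the 4 ranked series lists, 40 columns were not used, since nothing ties them to a replicate.

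Genes came from Ensembl release 115 without transposon genes, and sequence from RefSeq. No peak passed a chromosome end, and 99.6% of 30662 coding transcripts began with ATG. A summit was classed as promoter (within 500 bp of any TSS), exon, first intron or later intron of a protein-coding transcript, intron of non-coding genes only, or intergenic, in this order. Density is summits over the length of sequence in the class. A peak in first introns of several genes went to the gene with the shortest intron. Its position was measured in the shortest first intron that held the summit. Peaks overlapped if they shared 1 bp. Classes were compared within each replicate by exact two-sided sign-flip permutation tests over 3 replicates, whose smallest p is 0.25. Motifs were counted on both strands in windows of 50 bp on either side of summits and in windows of the same size 300 bp away on both sides. Of 516 gene list entries 6 had no match and 7 older symbols were replaced. The scripts were tested on simulated data. Members, gene lists, motifs and naming rules were chosen with earlier results of these data known. The genes named are hosts of the 20 highest-signal peaks in all 3 replicate lists, the 12 genes with most peaks, eg, kni and knrl, per list the 3 of highest signal and up to 2 without a peak in alphabetical order, and a set of loci. Genes named for density or for long introns without a peak were chosen after their values were seen. Alternatives used other distances from a TSS, peak midpoints, stricter or stronger sets, other lists, windows and overlaps, and left out each replicate. Tools were SciPy 1.17.1, matplotlib 3.10.9, pandas 2.3.3 and NumPy 2.4.6 in Python 3.11.15.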

Additional observations from a re-analysis of the deposited data

How the results depend on the processing

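No paired analysis was possible because there is only 1 group; classes were compared within each replicate instead. The density of first over later introns (log2 0.67 to 1.77 over all alternatives, the extremes being classes of distance from a TSS) and the median signal difference (3.01 to 4.16) kept their sign throughout. The first-intron share was 32.3% at 200 bp from a TSS, 22.5% at 1000 bp, 16.6% for summits in no later intron, 29.3% in the series lists of 8252 and of 8639 peaks, and 28.3% to 29.5% leaving out a replicate. Support in all 3 lists was 79.8% in peaks at or above the median signal (the stronger part), 50.1%, 35.9% and 47.3% in the series lists of 8252, 11724 and 8639 peaks, 42.8% at 50% overlap, 92.8% with ranked lists, and 49.3% to 52.9% for both other lists leaving out a replicate. The median distance into the intron was 2819.5, 4482, 2673, 3187 and 3500 bp at 200 bp, at 1000 bp, in no later intron, in the stronger part and in the list of 11724 peaks, and 3063 to 3238 bp leaving out a replicate. Genes with a peak were 12.6%, 22.2%, 16%, 12.8%, 16.7% and 20.4% at 200 bp, at 1000 bp, in no later intron, in the stronger part and in the lists of 8252 and 11724 peaks, 54.4% with 5 kb or more, and 12% to 12.4% leaving out a replicate. The alternatives add or remove summits, sequence or lists, and the causes of these moves were not tested.

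Of the motifs, those whose mean difference turned sign were near 0: AGGTCA (-0.14 percentage points in windows of 100 bp on either side, -0.23 in the stronger part, -0.03 to 0.15 leaving out a replicate), TGTTTAC (0.04, 0.23 and -0.22 to 0.11 in the same order), TATCGATA (0.02 in the wider windows), and, against windows 1000 bp away, CAAGGTCA (0.02), CAGGTAG (0.02, and -0.17 to 0.02 leaving out a replicate) and GGTCACAC (-0.01). Against windows 1000 bp away AGGTCA kept its sign, at 0.26 points, and in the wider windows TAGAGCA stood at 0.43 points. The causes were not tested. Of 16 motifs, 6 higher and 7 lower in 3 of 3 replicates became 4 and 5 against windows 1000 bp away, 5 and 5 in the wider windows and 4 and 6 in the stronger part. The same-gene, unmasked, chromosome 4, distance class and no-stronger-summit alternatives were chosen after seeing the data.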

Other observations

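Short sequences beyond the 16 motifs were counted as well. Of 2080 words of 6 letters, each taken with its reverse complement, the one with the largest surplus at first-intron summits was AAAATA, in 33.6% of summit windows, against 20.5% of flank windows and 23% of tiled windows. AAAAAA followed, in 33.6% against 21.3% and 21.6%. The largest deficit was that of GCAGCA, in 6.46% of summit windows against 11.3% of flank windows, and GCCAAA was in 8.38% against 12.8%. Each kept its direction in 3 of 3 replicates. The words were ranked by the values given here, so these are a description with no test.

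The width of the peaks was not even. Of the 2661 first-intron peaks, 1771 (66.6%) were exactly 360 bp wide, as were 68.8% of the whole conservative list, and widths ran from 90 to 735 bp.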
